A study of Mus musculus with 2 samples.

Results

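The genes described here are 9 that mark or drive the muscle stem cell lineage: the paired-box factors Pax7 and Pax3, the myogenic regulatory factors Myf5, Myod1, Myog and Myf6, the surface proteins Cdh15 and Calcr, and the fusion protein Mymk. They were taken by name, though with earlier results of these data known, and are 9 of the 55536 genes in the gene tables. Total RNA from the gastrocnemius, a calf muscle, was sequenced in 2 libraries. The mice were female, of strain B6CASTF1/J and aged 36 days. The strain is an F1 cross of a laboratory strain with a castaneus strain and came from The Jackson Laboratory. Each library started from 300 ng of RNA with ERCC spike-ins, synthetic RNAs added in known amounts. Both belong to 1 group, and no treatment, genotype or time was compared. The labels number the libraries as biological replicates 1 and 2 but name 1 shared donor record for the strain, so they do not state separate animals and the spread between them may be partly technical. All values below are therefore levels, ratios of the 2 libraries, and comparisons of 2 ways of quantifying the same reads, with no p-value.

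Satellite cells are the stem cells of skeletal muscle. They lie between the fibre and its sheath, and in young and adult muscle most of them are quiescent. Pax7 marks them. When they are activated, the basic helix-loop-helix factors Myf5 and Myod1 commit them to the muscle fate, Myog drives differentiation, and Mymk, the membrane protein myomaker, makes the myoblasts fuse into fibres. Myf6, also called MRF4, is the factor of this family that stays on in the nuclei of mature fibres. The factors pair with E proteins and bind a short DNA element, the E-box.

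The 4 myogenic factors share one ancestral DNA-binding and dimerization domain, and their transcripts are most alike in sequence there. Their most alike coding stretch of 90 bases, with no gaps, is shown because reads from such a stretch are the ones most easily credited to the wrong factor. Bases that are the same in all 4 are in capitals, 58 of 90. The sequences are GENCODE M21 transcripts on mm10, 5′ to 3′ in the coding strand, from Myod1 at chr7:46377051-46377140 (plus strand), Myf5 at chr10:107485542-107485631 (minus strand), Myog at chr1:134290350-134290439 (plus strand) and Myf6 at chr10:107494285-107494374 (minus strand), all in the first exon.
Myod1: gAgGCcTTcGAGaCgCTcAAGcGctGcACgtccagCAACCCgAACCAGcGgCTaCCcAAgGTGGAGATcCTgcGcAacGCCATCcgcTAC
Myf5: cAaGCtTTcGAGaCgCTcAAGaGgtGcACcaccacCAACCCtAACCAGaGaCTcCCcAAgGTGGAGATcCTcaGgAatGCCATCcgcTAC
Myog: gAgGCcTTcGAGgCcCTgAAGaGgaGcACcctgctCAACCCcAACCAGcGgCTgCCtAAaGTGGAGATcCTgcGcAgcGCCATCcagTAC
Myf6: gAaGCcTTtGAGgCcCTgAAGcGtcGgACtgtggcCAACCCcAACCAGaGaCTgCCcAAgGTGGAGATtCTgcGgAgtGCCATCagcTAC
Within this stretch the closest pair was Myod1 and Myf5, at 82.2% of bases, and the farthest was Myf5 and Myog, at 72.2%. Even so, the longest run of identical bases between any 2 of the 9 genes' transcripts was 26, found for Myf5 with Myod1 and for Pax7 with Pax3. Over the 36 pairs the median longest run was 12 bases. The deposited posterior SD of the gene's count, a score of how surely reads were credited to a gene, was 0 for all 9 genes in both libraries. The level of each gene was thus not set by dividing reads among the family, while the split among transcripts of 1 gene was less sure, as described below.

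Myf6 was by far the highest of the 9. It stood at 51.99 TPM (a level corrected for transcript length and library size) in replicate 1 and 48.49 in replicate 2, a mean of 50.24 ± 2.47 TPM (SD, n = 2), from 1848 and 1820 estimated counts. This put it at rank 879 and rank 948 of 22028 protein-coding genes by level. The libraries differed little, with a ratio of replicate 2 to replicate 1 of 0.939 (95% exact counting interval 0.880 to 1.002). Ratios here are of counts scaled by TMM, a normalisation that centres most genes on no difference, and their intervals cover counting error only. Myf6 lies at chr10:107492853-107494737 on the minus strand, 6718 bases from Myf5 at chr10:107482908-107486134 on the same strand.

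The neighbouring Myf5, the earliest of the family to appear in the embryo, was the lowest of the 4 factors. It had 0.64 TPM in replicate 1 and 1.02 in replicate 2, from 39 and 65 counts, so Myf6 exceeded it 81.2-fold and 47.5-fold in TPM. The Myf5 ratio of replicate 2 to replicate 1 was 1.59 (1.05 to 2.43), and 15.0% of the 15007 genes averaging at least 10 counts lay at least as far apart. Its low counts leave that ratio wide.

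Myog, the differentiation factor at chr1:134289989-134292548 (plus strand), stood at 8.91 and 7.89 TPM, from 380 and 355 counts. Its ratio was 0.891 (0.769 to 1.03), which includes no difference. Myod1, the commitment factor at chr7:46376474-46379099 (plus strand), stood at 4.11 and 4.93 TPM, from 221 and 280 counts, with a ratio of 1.21 (1.01 to 1.45). Myog was above Myod1 in both libraries, 2.17-fold in replicate 1 and 1.60-fold in replicate 2.

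As shares of the summed TPM of the 4 factors, Myf6 held 79.2% in replicate 1 and 77.8% in replicate 2, or 78.5% ± 0.988 (SD, n = 2). Myog held 13.6% and 12.7%, Myod1 6.26% and 7.91%, and Myf5 0.975% and 1.64%. The order of the 4 was the same in both libraries and in the reads-based tables, where Myf6 held 77.3% and 76.8%.

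Pax7 was present at a low but counted level. It had 1.03 TPM in replicate 1 and 1.20 in replicate 2, a mean of 1.12 ± 0.120 (SD, n = 2), from 127 and 169 counts. Its ratio of 1.27 (1.002 to 1.61) had an interval that barely left out 1. In RNA of whole muscle, fewer cells of a type and less RNA per cell cannot be told apart, so this is not a count of satellite cells. Pax7 lies at chr4:139737062-139833528 on the minus strand.

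Pax3, the paralog that works in embryonic muscle progenitors and in satellite cells of some adult muscles, was close to absent from the counts. It had 1 count in replicate 1 and 0 in replicate 2, or 0.01 TPM and listed at 0. A count of 0 still allows up to 3 counts at this depth. In the reads-based table it had 1.00 and 3.05 counts, the latter on a transcript annotated without a coding part. Pax3 lies at chr1:78101267-78197134 on the minus strand. Of the counts of the pair, not corrected for length, Pax7 held 99.2% in replicate 1 (95% Wilson interval 95.7 to 99.9) and 100% in replicate 2 (97.8 to 100).

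The surface proteins of the lineage differed widely. Cdh15, M-cadherin, which joins satellite cells to the fibre, had 10.18 TPM in replicate 1 and 8.00 in replicate 2, from 980 and 813 counts. It was 1.26-fold higher in replicate 1 (1.15 to 1.39). Cdh15 lies at chr8:122847966-122867397 on the plus strand, where the annotation also places Gm20388 on the same strand. That overlapping gene had 300.57 and 329.90 counts with a posterior SD of 213 and 182, while the posterior SD of the Cdh15 count was 0.

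Calcr, the calcitonin receptor, which helps to hold satellite cells in quiescence, had 0.25 TPM in both libraries, from 26 and 28 counts. Its ratio was 1.03, with an interval from 0.580 to 1.82, so a difference inside those bounds was not detectable at this depth. Set against Pax7, Cdh15 was 9.88-fold and 6.67-fold higher in TPM, and Calcr was lower, with Pax7 at 4.12-fold and 4.80-fold its level. Calcr lies at chr6:3685680-3764714 on the minus strand and hosts the microRNA genes Mir653 and Mir489.

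**Figure D1:**
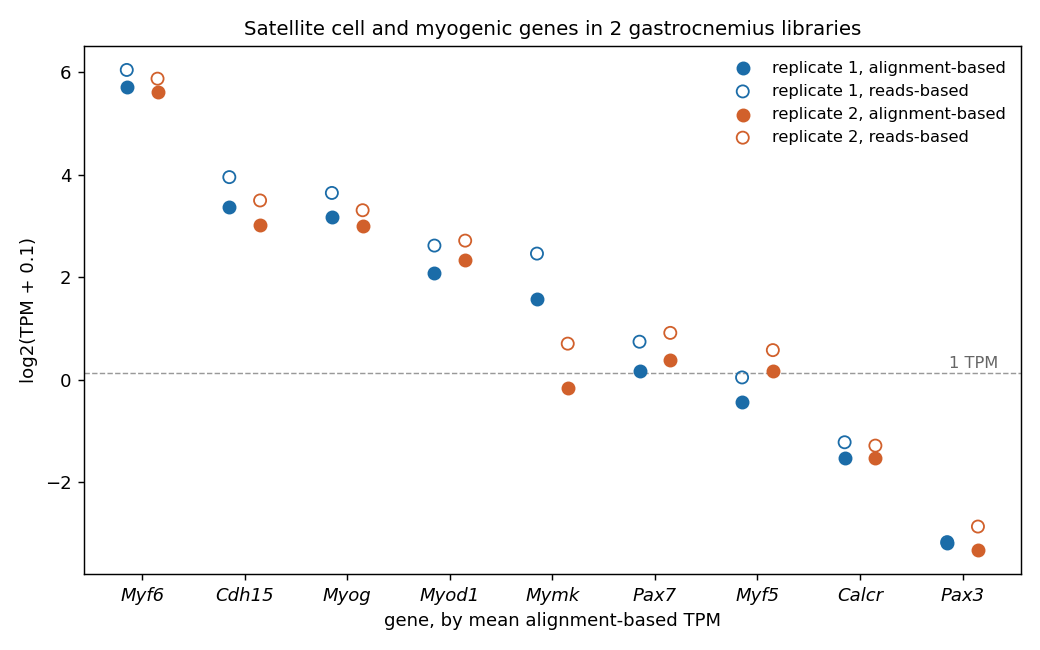
Level of each of the 9 genes as log2(TPM + 0.1), ordered by mean alignment-based TPM, with replicate 1 in blue and replicate 2 in orange, filled for the alignment-based gene table and open for the reads-based table. Myf6 sits alone at the top near 50 TPM, Mymk shows the widest gap between libraries, and Pax3 sits at the bottom in every table.

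Of the 9 genes, 5 were detected, meaning at least 1 TPM in both libraries: Myf6, Cdh15, Myog, Myod1 and Pax7. Among all protein-coding genes 45.2% were. Mymk reached 1 TPM in replicate 1 only and Myf5 in replicate 2 only. By mean level the order was Myf6, Cdh15, Myog, Myod1, Mymk, Pax7, Myf5, Calcr and Pax3. Cdh15 and Myog, next to each other in that order, overlapped between libraries, and so did Mymk and Pax7. The other neighbours did not overlap, with Myf6 5.11-fold and 6.06-fold above Cdh15, and Myf5 2.56-fold and 4.08-fold above Calcr. The narrowest of these steps was Pax7 above Myf5, 1.61-fold and 1.18-fold. There the authors' own TPM bounds overlapped in both libraries, at 0.958 to 1.46 for Pax7 and 0.772 to 1.26 for Myf5 in replicate 2.

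Among the members averaging at least 10 counts, Mymk was the 1 in which the libraries lay more than 2-fold apart. It had 2.90 TPM in replicate 1 and 0.80 in replicate 2, from 109 and 33 counts. That is 3.46-fold more in replicate 1 (95% exact counting interval 2.33 to 5.28). The authors' own TPM bounds ran from 2.35 to 3.45 in replicate 1 and from 0.571 to 1.13 in replicate 2, and so did not overlap. Those of Cdh15, 9.34 to 10.6 and 7.31 to 8.39, did not overlap either, though its direction changed under spike-in scaling, as given below. Only 2.79% of genes averaging at least 10 counts were as far apart as Mymk. Mymk lies at chr2:27061636-27072179 on the minus strand. Its partner in fusion, the microprotein gene Mymx, had 7 and 3 counts, 0.36 and 0.13 TPM, too few to place its ratio (2.45 in favour of replicate 1, interval 0.559 to 14.7).

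Over the 8 members averaging at least 10 counts, which leaves out Pax3, 1 lay over 2-fold apart, beside 7.72% of all 15007 genes so counted and 3.09% higher in replicate 1. The counting interval excluded no difference for 5 of the 8, with Cdh15 and Mymk higher in replicate 1 and Pax7, Myf5 and Myod1 higher in replicate 2. With the same TMM scaling it did so for 40.8% of all genes. Scaling to total counts left 4, without Pax7 and Myod1 and with Myf6 higher in replicate 1. Scaling to spike-ins gave 6, with Mymk higher in replicate 1 and Myf5, Myod1, Myog, Pax7 and Myf6 higher in replicate 2. The share of all genes was not counted under either of these scalings, so these member counts have none beside them. With TMM, the interval for Myf6, Myog and Calcr included no difference. The median log2 ratio of the 8 was -0.03, beside -0.00 over all genes, and the median size of the log2 ratio was 0.31 beside 0.21.

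These directions are relative to the bulk of genes. With TMM, which centres most genes on no difference, 4 of the 8 were higher in each library. When counts were scaled to the summed spike-ins instead, the median log2 ratio over genes moved up by 0.39. That scaling put 7 of the 8 higher in replicate 2 and 1, Mymk, higher in replicate 1. The share of all genes in each direction was not counted under either scaling, so these tallies describe the members only. Cdh15, Myog and Myf6 changed direction under spike-in scaling, to log2 ratios of 0.05, 0.22 and 0.30.

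**Figure D2:**
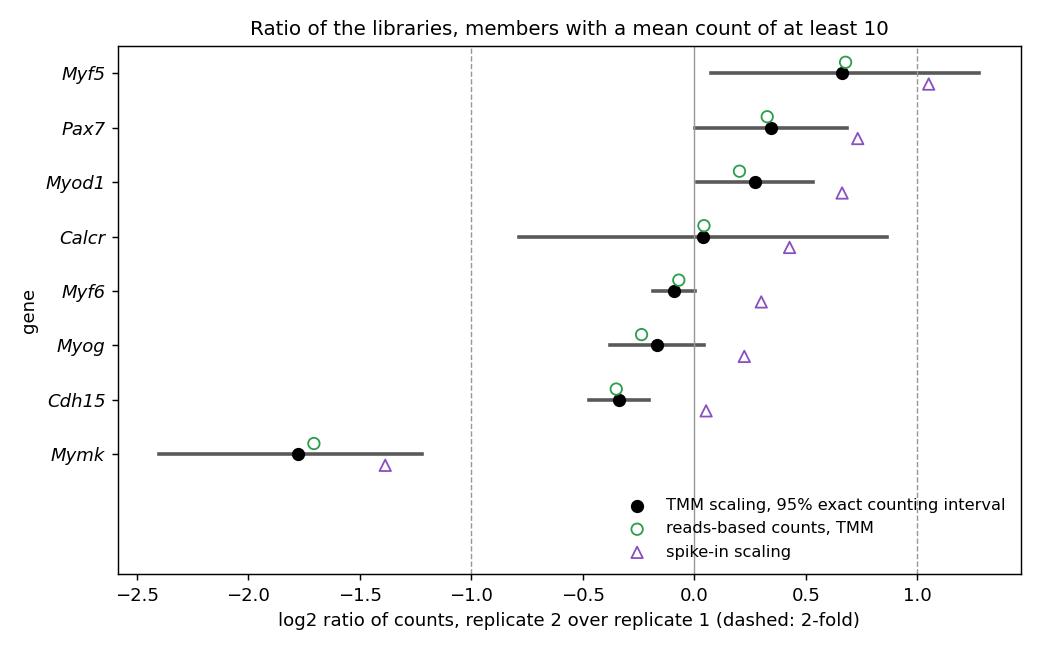
Log2 ratio of replicate 2 to replicate 1 for the 8 members averaging at least 10 counts, with filled points for TMM-scaled counts, horizontal bars for 95% exact counting intervals, green circles for reads-based counts and purple triangles for spike-in scaling. Mymk lies to the left of the 2-fold line under all 3, while Cdh15, Myog and Myf6 change sign under spike-in scaling.

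The libraries also differed in markers of other fibres and cells. These marker lists were chosen with earlier results of these data known, so their tallies describe the libraries and test nothing. The summed level of 7 slow-fibre genes was 15.1 TPM in replicate 1 and 2612 in replicate 2, and 7 of 7 were higher in replicate 2. The 7 fast-fibre genes summed to 93405 and 67530 TPM, and with TMM 7 of 7 were higher in replicate 1. Likewise, 6 of 6 fat cell markers (239 and 25.1 TPM summed), 6 of 6 nerve and Schwann cell markers (119 and 36.4) and 5 of 5 red blood cell markers (2445 and 425) were higher in replicate 1. The fast-fibre tally depends on the scaling. Its log2 ratios with TMM ran from -0.62 to -0.25, and spike-in scaling moved the median over genes up by 0.39. Thymocyte and T cell markers were higher in replicate 2 in 6 of 6 (0.20 and 7.82), with Rag1, Lck and Cd3d at 0 in replicate 1. Fibroblast markers (644 and 665) were close. Endothelial markers (41.3 and 47.6) were within 2-fold but higher in replicate 2 in 5 of 5, Kdr the most, at 3.36 and 6.28 TPM. The skeletal muscle list summed to 53100 and 42899 TPM. Of its 5 genes Mb, the oxygen-binding protein myoglobin, was over 2-fold apart, at 41.47 and 1323.77 TPM. Skin and other epithelial markers summed to 0.94 and 1.47, with Krt5, Krt14 and Epcam at 0 in replicate 1 and Epcam at 0 in replicate 2. The part of these in the ratios of Mymk, Cdh15, Pax7, Myf5 and Myod1 was not tested. Depth was alike, at 37735687 and 40656175 estimated counts. The 9 genes took 3731 and 3563 of them. Mitochondrial rows took 9.39% and 17.5%.

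The annotation gives the 9 genes 17 transcripts, with 1 each for Cdh15, Myf5, Myf6, Myod1 and Myog. For Pax7, Mymk and Calcr the split among transcripts was compared between the table made from alignments to the transcriptome and the table made directly from the reads.

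Pax7 had both of its transcripts in every table. The longer, of 5854 bases, held 58.8% of the gene's TPM in replicate 1 and 66.7% in replicate 2 in the alignment-based table, and 56.1% and 58.4% in the reads-based table. The shorter, of 1725 bases, held the rest. The longer has 3728 bases after its coding part and the shorter 114, and they also differ by 6 coding bases at the start of exon 4, chr4:139828705-139828710 on the minus strand. The junction is printed from the shorter transcript, with the bases that the longer lacks in capitals.
Pax7, start of exon 4: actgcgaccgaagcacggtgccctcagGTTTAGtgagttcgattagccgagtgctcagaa
The counts behind the split were 105.97 and 148.1 for the longer and 21.03 and 20.9 for the shorter, with a posterior SD of 3.89 in replicate 1 and 5.50 in replicate 2 for each transcript. The shorter transcript, with fewer counts and the same SD, was the less surely placed, and both tables gave it counts in both libraries.

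For Mymk the tables differed in replicate 1 only. The reads-based table put 100% of the gene in Mymk-201 in both libraries. The alignment-based table gave Mymk-202 30.0% of the TPM in replicate 1, 29.47 counts with a posterior SD of 15.23, and none in replicate 2. The transcripts start at different first exons, chr2:27071881-27072179 for Mymk-201 and chr2:27067740-27067868 for Mymk-202, and their coding parts there, on the minus strand, are printed to show how they differ.
Mymk-201: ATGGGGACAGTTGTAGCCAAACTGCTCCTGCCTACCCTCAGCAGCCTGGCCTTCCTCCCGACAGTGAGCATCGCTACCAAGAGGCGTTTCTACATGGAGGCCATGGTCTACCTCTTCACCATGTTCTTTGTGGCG
Mymk-202: ATGGGCAAAGGT
Mymk-201 alone had 79.53 counts in replicate 1 and 33 in replicate 2, so it too was higher in replicate 1.

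For Calcr the tables named different transcripts. The alignment-based table put all 26 and 28 counts in Calcr-205. The reads-based table put 26.6 and 29.0 in Calcr-202, which is 97.1% and 100% of the gene, and essentially none in Calcr-205. The posterior means in the alignment-based table did not favour either strongly. They spread the gene over 5 transcripts, with 10.32 and 10.11 counts for Calcr-205, 7.37 and 7.43 for Calcr-202, and 5.57 and 7.12 for Calcr-201, with posterior SDs of 6.35 and 6.42 for Calcr-205. The total for the gene differed between the tables by 1 count in each library, so the doubt is about the transcript and not about the gene.

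Calcr-202 and Calcr-205 have the same 1488 coding bases and differ in where they start. The first exon of Calcr-202 is chr6:3764432-3764714 and that of Calcr-205 is chr6:3763591-3763630. RefSeq (GRCm38.p6) lists a start site within a few bases of each, and the 150 bases before each RefSeq site are shown on the minus strand with an E-box, CANNTG, in capitals. The first is chr6:3764714-3764863, whose last 1 base lies in the Calcr-202 exon, and the second is chr6:3763624-3763773, whose last 7 bases lie in the Calcr-205 exon.
Calcr, before the RefSeq start near Calcr-202: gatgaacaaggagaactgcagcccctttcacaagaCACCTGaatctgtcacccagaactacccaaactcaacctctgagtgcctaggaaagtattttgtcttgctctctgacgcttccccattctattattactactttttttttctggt
Calcr, before the RefSeq start near Calcr-205: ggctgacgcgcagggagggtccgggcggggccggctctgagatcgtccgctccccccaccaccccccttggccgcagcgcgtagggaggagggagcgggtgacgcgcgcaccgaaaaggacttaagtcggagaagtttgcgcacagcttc
The second is richer in G and C, at 70.0% of bases beside 43.3%. Calcr-201 and Calcr-204 carry a further coding exon of 111 bases, exon 10 of Calcr-201 at chr6:3707489-3707599 on the minus strand, which the other 3 lack. It is printed because neither table credited it with more than a trace of a count, while the posterior means gave its transcripts a share.
Calcr-201 exon 10: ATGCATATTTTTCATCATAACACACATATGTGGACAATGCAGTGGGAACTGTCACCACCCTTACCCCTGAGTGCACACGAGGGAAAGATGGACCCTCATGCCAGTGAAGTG

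**Figure D3:**
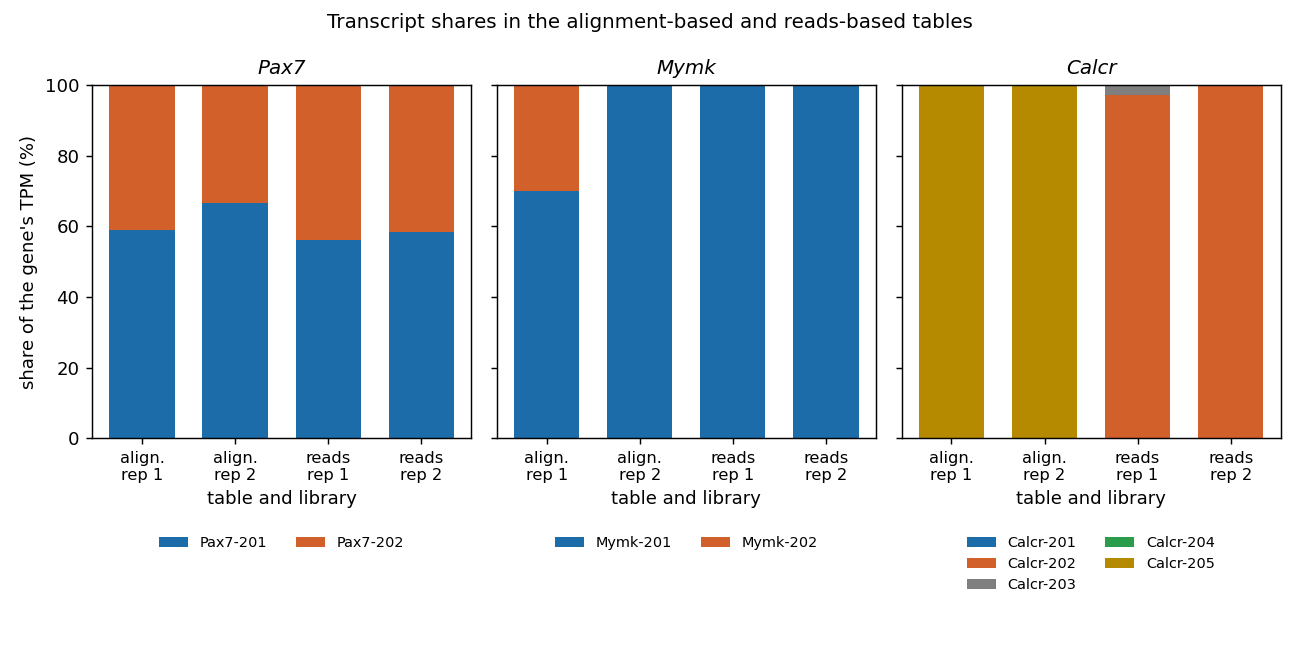
Share of each gene's TPM (percent) by transcript for Pax7, Mymk and Calcr, with 1 bar for each table (alignment-based or reads-based) and library. The Pax7 bars are alike in all 4, Mymk-202 appears in 1 bar, and the Calcr bars change colour completely between the tables.

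RefSeq promoter windows, from 250 bases before to 50 after a RefSeq start site, were found for 5 of the 9 genes: Calcr, Cdh15, Myf5, Myog and Pax7. The Myog promoter is printed because myogenic factors are known to act on it through E-boxes. Its 150 bases before the RefSeq start, chr1:134289854-134290003 on the plus strand, hold 2 matches to CANNTG, in capitals, 138 and 12 bases before that site. GENCODE starts Myog earlier, so the last 15 of these bases, with the second match, lie in the first exon of its transcript.
Myog: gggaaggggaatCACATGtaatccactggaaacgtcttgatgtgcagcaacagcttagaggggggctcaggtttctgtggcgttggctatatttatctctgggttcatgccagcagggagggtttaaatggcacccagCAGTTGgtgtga
Cdh15 had 4 matches in its window, Calcr 1 in the window of Calcr-202 and 0 in the other, and Myf5 and Pax7 0. The windows of Cdh15 and Pax7, all 300 bases of each, lie inside the first exon that GENCODE gives Cdh15 and the longer Pax7 transcript, so they are transcribed sequence under that annotation. The motif reads the same on both strands, and 72.3% of all 32851 RefSeq promoter windows hold at least 1, while 39.6% hold at least as many as Myog. A match is a run of letters and not evidence of a bound site.

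The reads-based table gave higher TPM in the median, with a log2 difference of 0.60 in replicate 1 and 0.49 in replicate 2 over 10823 genes. Myf6 gained less than that, 0.34 and 0.27, and had fewer counts there, at 1499 and 1488, or 0.811 and 0.818 of those from alignments. Mymk gained more, 0.88 and 0.86, with 139 and 44 counts, or 1.28 and 1.33 times. By mean level the order of the 9 genes was the same in both tables. In the reads-based table Mymk was still higher in replicate 1, at 5.41 TPM beside 1.53.

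Other genes of the lineage were read from 8 lists, with 94 genes beside the members. Of these, 58 were detected in both libraries, where 45.2% of protein-coding genes were, and 85 averaged at least 10 counts. Among the 85, 12 were over 2-fold apart, or 14.1%, with 9 higher in replicate 2 and 3 higher in replicate 1. Over all 15007 genes the share was 7.72%, with 4.63% higher in replicate 2 and 3.09% higher in replicate 1. The median log2 ratio was 0.08.

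The receptor and adhesion list of satellite cells, Cdh15 and Calcr included, had 11 of 14 genes detected and none over 2-fold apart. Its highest genes are shared with many other cells: Itgb1, integrin beta-1, at 68.31 and 61.71 TPM, the growth factor receptor gene Fgfr1 at 26.08 and 18.82, and Itga7, the laminin-binding integrin of muscle, at 24.67 and 18.78. Cd34, which endothelial cells also carry, stood at 13.90 and 15.60. The lowest was Calcr.

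Of the Notch pathway and quiescence genes, 12 of 13 were detected and none was over 2-fold apart. The ligand Jag2 stood at 10.09 and 7.68 TPM, Rbpj, the DNA-binding partner of Notch, at 7.87 and 9.32, Spry1, a brake on growth factor signalling, at 5.87 and 7.88, and the receptor Notch3 at 4.43 and 5.20. Hey2, a target of Notch, was lowest at 0.11 and 0.17. The E protein partners of the factors were all 3 detected, Tcf4 at 20.67 and 24.68, Tcf12 at 9.81 and 10.80 and Tcf3 at 4.78 and 4.70. None of the 3 was over 2-fold apart.

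The inhibitors of myogenic factors had 7 of 13 detected. Zeb1, a repressor that competes for E-boxes, stood at 20.20 and 20.85 TPM and Bhlhe41 at 18.97 and 21.66. Id3 and Id1, which sequester E proteins, stood at 5.67 and 5.40 and at 4.06 and 6.94. Snai1, another E-box repressor, was 2.10-fold higher in replicate 1 (1.01 to 4.60), on 24 and 12 counts. Mdfi was lowest, with 4 counts in each library. In the fusion list, 6 of 14 genes were detected, and of the 10 averaging at least 10 counts Mymk was the 1 over 2-fold apart. Dysf, the membrane repair gene dysferlin, was highest at 33.11 and 30.29, followed by the adhesion molecules Jam2 at 5.37 and 6.10 and Jam3 at 2.47 and 3.21, and Nphs1 and Adgrb3 were lowest, both at 0 and 0.02.

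The factors that act upstream of the family held the widest gaps. Of 18, 11 were detected. Lbx1, a factor of migrating limb precursors, stood at 22.48 and 19.92 TPM, and Eya4, a transcriptional cofactor, at 15.89 and 10.29. Six2 had 14.84 TPM in replicate 1 and 4.84 in replicate 2, 3.01-fold more in replicate 1 (2.64 to 3.45). Tbx1 went the other way, with 0.61 and 4.35 TPM, 6.96-fold more in replicate 2 (4.83 to 10.3). Barx2 at 0.86 and 4.02 TPM and Dach2 at 0.07 and 0.24 were also over 2-fold higher in replicate 2, the last on 3 and 27 counts. Tbx1, Barx2 and Dach2 were higher in the library with the higher slow-fibre sum, and the part of fibre type in them was not tested.

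**Figure D4:**
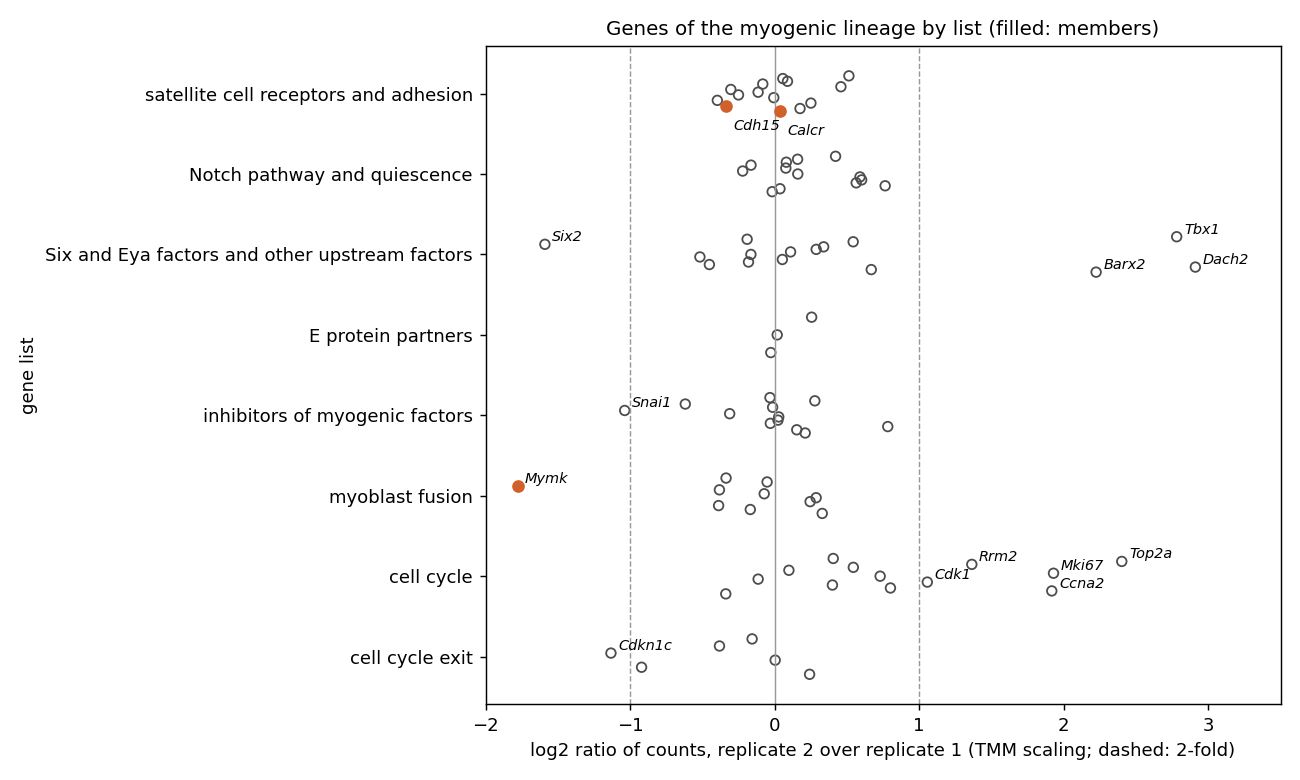
Log2 ratio of replicate 2 to replicate 1 (TMM scaling) for each gene averaging at least 10 counts in 8 lists of the lineage, members filled in orange, with the plotted genes over 2-fold apart named and 2 upstream factors not plotted. The receptor, Notch and E protein lists stay between the 2-fold lines, while upstream factors and cell cycle genes reach beyond them. The inhibitor, fusion and cell cycle exit lists each have 1 gene beyond them, Snai1, Mymk and Cdkn1c, all higher in replicate 1.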

How the data were processed

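Total RNA of gastrocnemius was sequenced in 2 libraries of 1 group, with replicate numbers from the labels. The authors deposited 3 tables per library: genes, transcripts quantified from transcriptome alignments, and transcripts quantified straight from reads. The expected counts (gene and alignment-based tables) and estimated counts (reads-based table) are the authors' unnormalised values and can be fractional. TPM is as the authors deposited it, and its total includes spike-in rows. The posterior SD of the count is a score that the authors deposited beside it, per the file headers. Per the deposited descriptions, annotation GENCODE M21 on mm10 was used; the quantification program is not given in the sources used here. The effect of castaneus alleles on mapping was not tested.

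Beside 55536 genes, the 81881 rows of each gene table were 97 spike-ins and 26248 tRNAs, both kept out of library sizes. Members were matched by symbol through the reads-based identifiers. Expected counts were rounded and scaled by TMM in edgeR 4.0.16 (R 4.3.3), with a prior count of 0.5 for log2 ratios. DESeq2 1.42.0 size factors, total counts and spike-ins were alternatives, with other detection thresholds, pseudocounts of 0.1 and 1, reads-based values, and leaving out either library. The rest was done in Python 3.11.15 (pandas 2.3.3, numpy 2.4.6, matplotlib 3.10.9, scipy 1.17.1). Ratio intervals are exact (Clopper-Pearson) and share intervals are Wilson, at 95%. Without molecular identifiers reads are not independent, so both cover counting error only, as does the floor of 3 counts. The ratio steps were tested on simulated data.

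The members and the gene lists were chosen with earlier results of these data known. Named are all 9 members, and from each lineage list up to 4 of the highest genes, the lowest, and any over 2-fold apart that averaged at least 10 counts. Mymx, Mb, Adgrb3, Kdr, Rag1, Lck, Cd3d, Krt5, Krt14 and Epcam were named after their values were seen. Transcripts are described where they hold at least 10% of a gene in any table. Values of 3 genes of the upstream list that this selection covers are left out here. For Myf6 and Pax7 the 3 protein-coding genes nearest in level are named.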

Additional observations from a re-analysis of the deposited data

How the results depend on the processing

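Over the alternatives run, Mymk kept its direction, with a log2 ratio between -1.82 and -1.12, and so did Pax7 (0.12 to 0.73) and Myf5 (0.30 to 1.05). Cdh15 reversed under spike-in scaling, to 0.05345 from -0.34. The median TPM of the members, 1.85, became 3.469 in the reads-based table and 3.509 without mitochondrial, spike-in, 7SL and 7SK rows. Members over 2-fold apart numbered 2 instead of 1 with no filter on low counts, where Pax3 joins on 1 count, and 2 with spike-in scaling, where Myf5 joins. Detected members numbered 8 instead of 5 at 0.1 TPM and 8 at a minimum of 10 estimated counts. Shares of all genes were counted only at 1 TPM in both libraries and, for ratios, with TMM and the count filter. The member counts at other settings have no such share beside them. The Myf6 share, 78.49%, became 77.03% in reads-based TPM and 73.25% in counts, which are not corrected for length. The Calcr-205 share fell from 100% to 3.589e-06% in the reads-based table. The median log2 difference between the tables, 0.4484, became 0.3112 with a pseudocount of 1. Leaving out either library gave a median of 1.2 to 2.9 TPM, 6 detected members (6 to 6), a Myf6 share of 77.8% to 79.19%, a share of the longer Pax7 transcript of 58.82% to 66.67%, a Mymk-201 share of 70% to 100% and a Calcr-205 share of 100%. No paired analysis was possible because there is 1 group. Depth limits Calcr, Myf5 and Pax3 most, and with 2 libraries a difference between them cannot be assigned to a condition.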

Other observations

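The cell cycle list described few transcripts and a gap between the libraries. Of 16 genes, 3 were detected in both: Pcna, the sliding clamp of DNA replication, at 7.63 and 8.10 TPM, Mcm2, a subunit of the replicative helicase, at 2.19 and 2.21, and the mitotic kinase gene Aurka at 2.49 and 1.62. Among the 13 averaging at least 10 counts, 5 were over 2-fold higher in replicate 2 and none in replicate 1, beside 4.63% and 3.09% of all genes, and the median log2 ratio was 0.73. Top2a, the topoisomerase of dividing cells, had 31 and 174 counts, a ratio of 5.35 (3.64 to 8.12). Ccna2 had a ratio of 3.90 (1.99 to 8.36), Mki67, the proliferation marker, 3.83 (2.99 to 4.94), Rrm2 2.60 (1.64 to 4.25) and Cdk1 2.15 (0.888 to 5.70), the last on 8 and 18 counts. Bub1 was the lowest of the list by level. Thymocyte and T cell markers were higher in the same library (0.20 and 7.82 TPM summed), and their part in the cell cycle values was not tested.

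All 6 genes of cell cycle exit were detected. Cdkn1c, an inhibitor of cyclin-dependent kinases, had 40.12 TPM in replicate 1 and 16.95 in replicate 2, 2.19-fold more in replicate 1 (2.01 to 2.39). Cdkn1a, the inhibitor that Myod1 is known to induce, had 20.31 and 10.67 TPM, 1.89-fold more in replicate 1 (1.72 to 2.09). Cdkn1b stood at 15.64 and 15.49, Ccnd3, the cyclin of differentiating muscle, at 11.37 and 12.32, and Cdkn2c was lowest at 4.77 and 3.48.

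Genes nearest to Myf6 in level over the 2 libraries, by distance of log2(TPM + 0.1), were Sumo2 (52.45 and 48.53 TPM), Spcs1 (52.44 and 48.27) and Pnpla8 (51.92 and 47.91), with 30 protein-coding genes within 0.1. Those nearest to Pax7 were Gbp9 (1.03 and 1.19), Slc9a3r1 (1.02 and 1.22) and Parp12 (1.03 and 1.23), with 37 within 0.1. With so many genes this close in only 2 libraries, likeness of level is a description and nothing more.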
